A study of Mus musculus with 16 samples.

Results

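C-type lectin receptors were followed across macrophages of 3 mouse serous cavities and of the heart. The genes were chosen by symbol: Cd207, Cd69, the murine CD209 genes Cd209a to Cd209g, and every Clec gene whose symbol has the form of a number followed by a letter. This gave 41 genes of the 24981 listed. Of these, 26 lie on chromosome 6, 10 on chromosome 8 and 5 elsewhere. The symbol rule also takes in Clec3b, Clec11a and Clec18a, whose products are secreted, and Clec16a, an intracellular regulator of autophagy that is not known as a sugar receptor.

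C-type lectin receptors carry a shared fold that in many members binds sugars or lipids in a calcium-dependent way, and myeloid cells use them to sense fungi, mycobacteria and dead cells. Activating members such as Dectin-1 and Dectin-2 signal through the kinase Syk, either by a motif of their own or through the adaptor FcRγ, while inhibitory members such as DCIR1 and MICL carry a motif that recruits phosphatases. Other members take up glycoproteins (the DC-SIGN family, MGL1, langerin) or serve as ligands of receptors on natural killer cells (the Clr proteins).

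All mice were C57BL/6, 8 weeks of age and unchallenged. Macrophages were sorted by flow cytometry from lavage of the pericardial cavity around the heart, the pleural cavity around the lungs and the peritoneal cavity of the abdomen, and from the heart itself. Each population has 4 RNA-seq libraries, numbered 2 to 5. No source used here gives the sort gates or ties libraries to single animals. The p-values therefore measure the spread between these libraries, which may be technical. The libraries had 40886702 to 70166356 alignments. All 8 general macrophage markers looked at (Csf1r, Adgre1, Cd68, Mertk, Fcgr1, Lyz2, Itgam and Cd14) passed the filter described next. Their summed RPKM was 20135 to 42739 in cavity and 4875 to 8636 in heart libraries, with no overlap. In each cavity 3 of the 8 were called higher than heart and 3 lower by the test described below. Of all genes tested, 47.8 to 53.8% were called higher and 13.9 to 14.7% lower. The summed RPKM of 6 cavity macrophage markers was 3224 to 5490.5 in cavity libraries and 59.8 to 82.0 in heart libraries. Fibroblast, cardiomyocyte and endothelial markers summed to at most 2.14, 4.77 and 2.04 RPKM in any cavity library, against 186 to 703, 258 to 548 and 8.16 to 22.8 in heart libraries.

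Levels are RPKM, the read number scaled to transcript length and to the library's reads. Of the 41 genes, 27 reached 1 RPKM in at least 4 libraries and were tested, which is 65.9% against 45.0% of all genes. In heart macrophages 25 to 26 of the 41 genes stood at 1 RPKM or more in a library, and in cavity macrophages 18 to 22 did. The genes split mostly along the line between heart and cavities: 18 of the 27 were higher in heart than in each of the 3 cavities, and 5 were lower in heart than in each of them. The 18 were Cd207, Cd209a, Cd209d, Cd209f, Cd209g, Cd69, Clec10a, Clec12a, Clec2d, Clec3b, Clec4a1, Clec4a2, Clec4a3, Clec4b1, Clec4f, Clec4n, Clec5a and Clec7a. The 5 were Clec4d, Clec4e, Clec2g, Clec2i and Cd209b. The filter had a part in these counts. Of the 18, Cd207, Cd209d, Cd209f, Cd209g, Clec3b and Clec4f would not have been tested without their heart levels, since fewer than 4 cavity libraries reached 1 RPKM, and the other 12 would. Of the 5, Clec2g had no heart library at 1 RPKM. A gene that is tested only because of the group where it is high had to differ, so the 18 and 5 are a description. In these bulk samples, fewer cells of a type and less RNA per cell cannot be told apart.

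These counts come from limma on log2(RPKM + 0.5), with p-values adjusted over all 11234 genes tested and a call at an adjusted p under 0.05. A population was said to be set apart where it differed from each of the other 3 in 1 direction (an intersection-union test), and 11.6% of all genes were so called higher in heart and 41% lower. In 16 of the 27 genes every heart library lay above every cavity library, against 10.2% of all genes tested. All 16 were among the 18 genes higher in heart. The exceptions among the 18 were Cd209d and Clec2d. In 5 of the 27 genes every heart library lay below every cavity library, against 27.8% of all genes tested. These were the 5 genes lower in heart.

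By single comparison, pericardial macrophages had 6 of the 27 genes higher than heart and 19 lower, against 53.8% and 14.7% of all genes and 68.5% in either direction. Pleural macrophages had 5 higher and 18 lower, against 47.8% and 13.9% of all genes and 61.7% in either direction. Peritoneal macrophages had 7 higher and 18 lower, against 48.8% and 14.1% of all genes and 62.9% in either direction. The median log2 fold of the 27 genes was -1.41, -1.56 and -1.22 in pericardial, pleural and peritoneal macrophages against heart, where the median of all genes tested was 0.45, 0.36 and 0.38. These counts and medians take in the 6 genes tested only because of their heart levels, and Clec2g, tested through the cavities alone. They are therefore a description too. Of the genes that did not depend on 1 side for the filter, 12 were higher and 4 lower in heart than in each cavity. How libraries are scaled moves the background. With every library set to an equal RPKM total, pericardial macrophages had 24% of all genes higher than heart and 36.2% lower, against 24.1% and 32.8% in pleural and 30.9% and 27.4% in peritoneal macrophages, while the lectin genes gave 5 higher and 19 lower, 5 and 18, and 6 and 18. The median log2 fold of all genes was then -0.12, -0.11 and 0.01, and with median-ratio scaling 0.12, 0.08 and 0.10. With the latter the shares of all genes were 39.2% and 25.2%, 35.3% and 24.7%, and 36.6% and 23.9%, and the lectin genes again gave 5 and 19, 5 and 18, and 6 and 18.

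**Figure D1:**
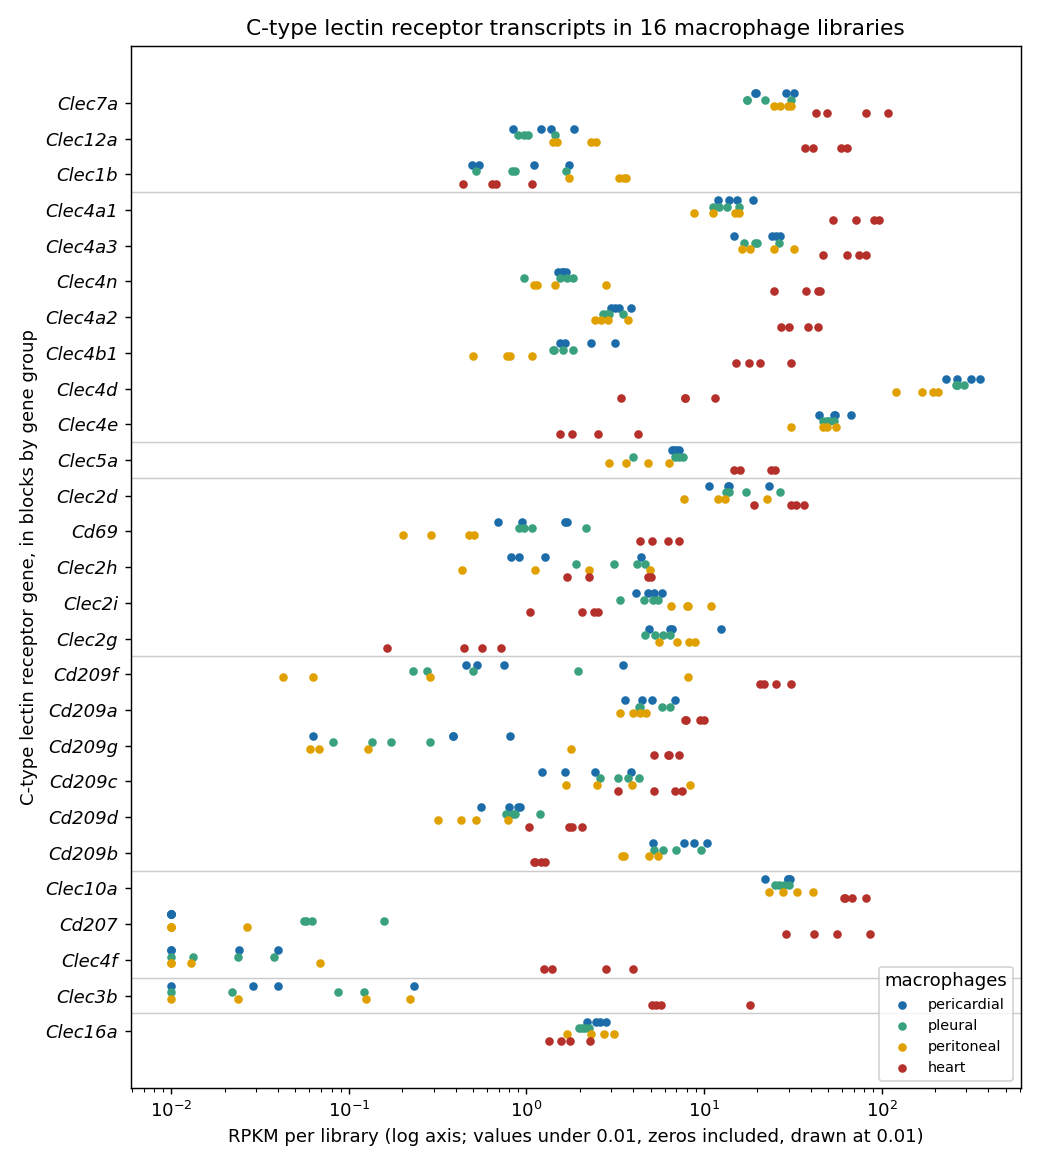
RPKM of the 27 tested genes in each of the 16 libraries on a log axis, with genes in blocks by group and 1 point per library; values under 0.01 are drawn at 0.01. Heart points lie to the right of the cavity points for most genes and to the left for Clec4d, Clec4e, Clec2g, Clec2i and Cd209b.

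**Figure D2:**
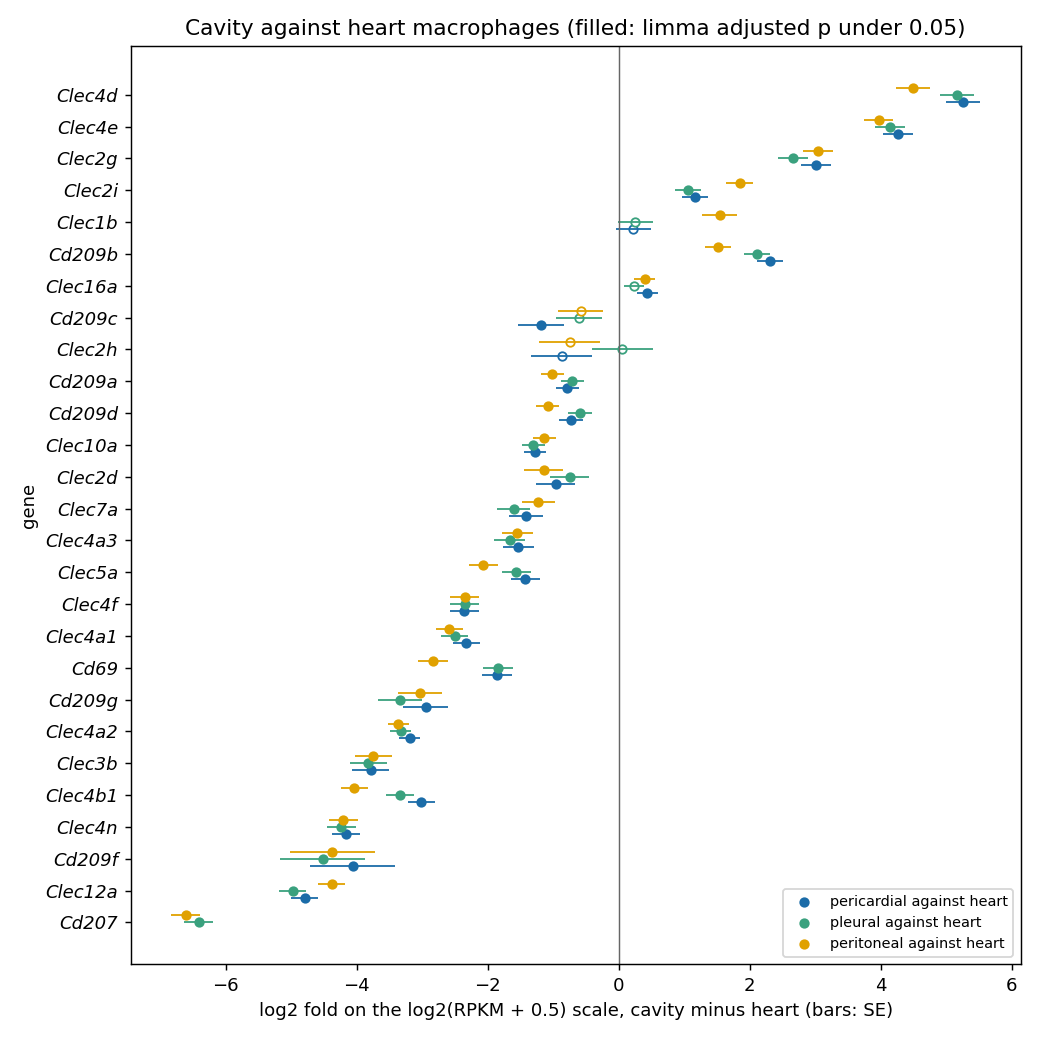
Log2 fold (log2(RPKM + 0.5) scale) of each cavity population against heart for the tested genes, ordered by the peritoneal value, with limma's SE as bars and filled points for called genes; the pericardial value of Cd207, listed at 0 in all 4 libraries, is not drawn. Folds run from 5.26 for Clec4d in pericardial macrophages to -6.61 for Cd207 in peritoneal macrophages.

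Summed over the 41 genes, RPKM was 284 to 607 in cavity libraries and 482 to 749 in heart libraries, ranges that overlap. As a share of all RPKM in a library, which does not depend on its total, the family made up 0.102 to 0.126% in cavity libraries and 0.212 to 0.241% in heart libraries, with no overlap. Clec4d and Clec4e, which encode the MCL and Mincle receptors, made up 53.6 to 70.2% of the family's RPKM in every cavity library and 1.23 to 1.78% in heart libraries. Monocyte markers, 6 tested of 8, stood beside this, with 4 called higher and 1 lower in each cavity than in heart and a summed RPKM of 97.5 to 207 in cavity and 32.2 to 44.0 in heart libraries. Of the defining ones, Ly6c2 was at no more than 1.01 RPKM in any library. Ccr2 ran against the sum and the 4 called higher, at 5.05 to 26.2 in cavity and 25.3 to 40.4 in heart libraries. B cell markers, 5 tested of 8, summed to 15.99 to 73.8 RPKM in cavity and 8.35 to 14.3 in heart libraries, with 4, 4 and 3 called higher in pericardial, pleural and peritoneal macrophages. Beside both lists, 53.8%, 47.8% and 48.8% of all genes were called higher and 14.7%, 13.9% and 14.1% lower, in the same order. The part of monocytes or B cells in the Clec4d and Clec4e levels was not tested. Without both genes the sum was 131 to 190 in cavity libraries and 476 to 736 in heart libraries, with no overlap. By RPKM, Clec4d held ranks 194 to 307 of all 24981 genes in the cavities and ranks 3463 to 7063 in heart. In each of the 12 cavity libraries Clec4d was the highest and Clec4e the next highest gene of the family. In heart libraries the highest was Clec4a1 in 3 and 5, Clec10a in 2 and Clec7a in 4.

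**Figure D3:**
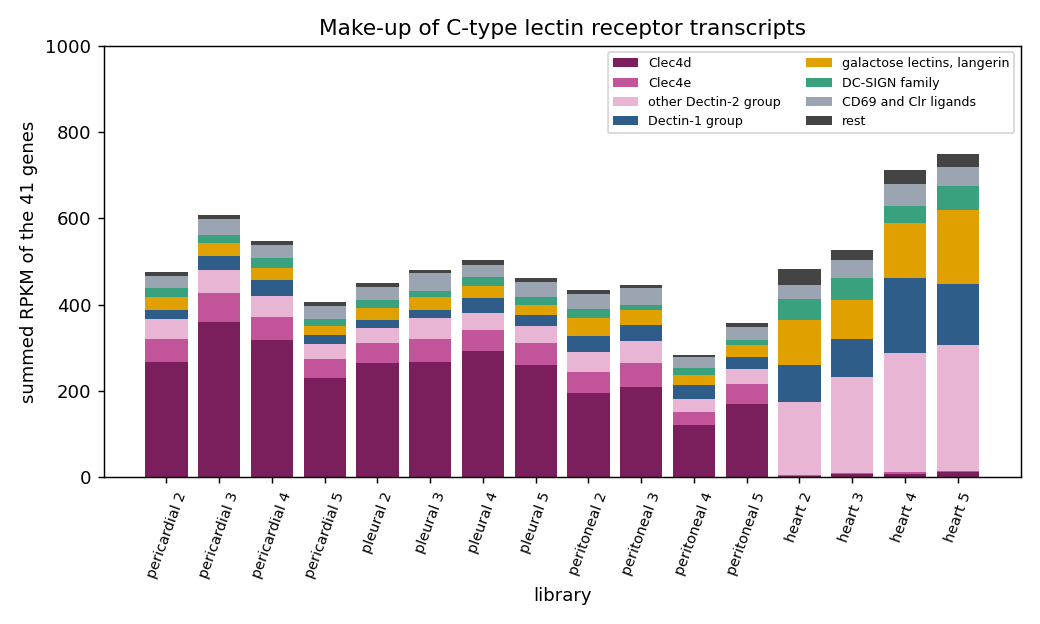
Summed RPKM of the 41 genes in each library, stacked by gene group, with Clec4d and Clec4e drawn apart from the rest of the Dectin-2 group. Clec4d and Clec4e fill 53.6 to 70.2% of each cavity bar and 1.23 to 1.78% of each heart bar.

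The Dectin-2 group forms a row of 9 genes on chromosome 6, from Clec4a1 to Clec4e (GRCm38.p6, chr6:122921848-123289871), and 7 of them passed the filter. The last pair of the row, Clec4d and Clec4e, was high in the cavities, while the other 5 tested genes were higher in heart. The start regions of this pair are shown with that of Clec4a2, a gene of the same row with the opposite difference. Each line gives the bases from 250 before to 50 after the RefSeq start site, 5′ to 3′ along the gene, from GRCm38.p6. Capitals mark matches, on either strand, to letters bound by PU.1 (GAGGAA), C/EBP (TTNCNNAA), AP-1 (TGANTCA) or GATA factors (GATAA), searched because these factors are known in macrophages. The lines cover chr6:123261857-123262156 on the plus strand for Clec4d, chr6:123289822-123290121 on the minus strand for Clec4e, and chr6:123122440-123122739 on the plus strand for Clec4a2.
Clec4d: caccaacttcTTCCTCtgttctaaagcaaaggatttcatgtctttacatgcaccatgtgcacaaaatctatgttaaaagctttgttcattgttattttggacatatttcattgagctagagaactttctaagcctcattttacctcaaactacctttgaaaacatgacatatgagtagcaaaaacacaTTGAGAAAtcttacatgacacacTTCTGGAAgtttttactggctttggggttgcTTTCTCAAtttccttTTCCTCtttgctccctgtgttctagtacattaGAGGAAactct
Clec4e: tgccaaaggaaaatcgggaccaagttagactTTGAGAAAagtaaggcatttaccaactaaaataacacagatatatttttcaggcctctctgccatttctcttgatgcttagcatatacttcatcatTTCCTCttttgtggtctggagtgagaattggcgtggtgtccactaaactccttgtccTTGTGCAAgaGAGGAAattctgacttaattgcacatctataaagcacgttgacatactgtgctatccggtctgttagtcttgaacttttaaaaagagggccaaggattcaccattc
Clec4a2: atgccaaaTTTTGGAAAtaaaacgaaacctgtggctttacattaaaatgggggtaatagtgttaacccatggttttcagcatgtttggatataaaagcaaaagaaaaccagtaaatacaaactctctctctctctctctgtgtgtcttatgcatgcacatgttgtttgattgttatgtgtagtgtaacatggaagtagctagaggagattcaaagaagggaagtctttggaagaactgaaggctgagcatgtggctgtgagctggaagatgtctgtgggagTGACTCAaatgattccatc

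The Clec4d window held 3 matches for PU.1 and 3 for C/EBP, and the Clec4e window 2 of each. Neither held a match for AP-1 or GATA. The Clec4a2 window held 1 match for AP-1, near its end, and 2 overlapping matches for C/EBP, which were the only matches to overlap in the 3 windows. It held 0 for PU.1, unlike other genes of the row that were higher in heart. The windows of Clec4a1 and Clec4b1 held 2 matches for PU.1 each and 0 for C/EBP. The first listed window of Clec4a3 held 0 of both. PU.1 matches thus did not follow the direction of the difference along the row. Over all 32851 RefSeq start windows of this length, the share with a match was 28.3% for PU.1, 40.7% for C/EBP, 7.81% for AP-1 and 25.4% for GATA. For the lectin genes 1 window per gene was counted, the first listed. Of the 18 genes higher in heart, 14 had a window, and 7, 6, 5 and 4 of them held a match for PU.1, C/EBP, AP-1 and GATA. Clec4a3 also had a window that was not counted, with 1 match for PU.1. All 5 genes lower in heart had a window, and 2, 4, 1 and 3 of them held a match in the same order. A match is a run of letters and says nothing of binding.

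Clec4d, the MCL receptor that pairs with Mincle and binds mycobacterial cord factor, stood at 267, 359, 318 and 230.0 RPKM in pericardial libraries 2 to 5, 265, 267, 292 and 261 in pleural, 194, 209, 121 and 169 in peritoneal and 3.41, 7.80, 7.86 and 11.5 in heart libraries, each in the order 2 to 5. Every cavity library was at least an order of magnitude above every heart library, and the peritoneal libraries were the lowest of the cavities without overlap with the others. The log2 fold against heart was 5.26 ± 0.26 (SE), 5.17 ± 0.26 and 4.49 ± 0.26 in pericardial, pleural and peritoneal macrophages (largest limma adjusted p = 1.13e-11). Clec4e, or Mincle, the FcRγ-coupled receptor of cord factor and of a protein of dead cells, stood at 54.2, 67.5, 54.5 and 44.7 RPKM in pericardial libraries, at 46.7, 53.9, 49.5 and 50.8 in pleural, at 49.4, 55.1, 30.9 and 46.6 in peritoneal and at 2.52, 1.55, 4.27 and 1.80 in heart libraries. Again no heart library reached the lowest cavity library, and the 3 cavities overlapped among themselves. Its log2 fold against heart was 4.26 ± 0.22, 4.14 ± 0.22 and 3.97 ± 0.22 in the same order (largest limma adjusted p = 8.27e-12). The level of Clec4d per level of Clec4e, both per length, was 4.93 to 5.83 in pericardial, 4.95 to 5.89 in pleural, 3.63 to 3.93 in peritoneal and 1.35 to 6.41 in heart libraries. This ratio was chosen after its values were seen and was given no test.

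Clec4n encodes Dectin-2, the FcRγ-coupled receptor of fungal mannans, and lies next to Clec4d. Its level was 1.51, 1.58, 1.66 and 1.60 RPKM in pericardial libraries, at 1.55, 0.963, 1.70 and 1.83 in pleural, at 2.79, 1.15, 1.10 and 1.44 in peritoneal and at 24.6, 37.5, 44.0 and 45.0 in heart libraries. All heart libraries were above all cavity libraries, and the log2 fold against heart was -4.16 ± 0.22, -4.23 ± 0.22 and -4.20 ± 0.22 in pericardial, pleural and peritoneal macrophages (largest limma adjusted p = 2.72e-12). The neighbours Clec4n and Clec4d thus differed in opposite directions. Clec4d stood at 69.6 to 277 times the level of Clec4n in cavity libraries and at 0.139 to 0.257 times in heart libraries. Clec4b1, the DCAR receptor that also uses FcRγ, stood at 1.64, 3.16, 2.30 and 1.55 RPKM in pericardial libraries, at 1.41, 1.61, 1.42 and 1.84 in pleural, at 0.806, 1.08, 0.499 and 0.778 in peritoneal and at 15.1, 17.8, 20.6 and 31.0 in heart libraries. It was above every cavity library in all heart libraries, with folds of -3.01 ± 0.21, -3.34 ± 0.21 and -4.03 ± 0.21 (log2, same order; largest limma adjusted p = 2.26e-10).

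The DCIR genes of the row showed the same side at several sizes. Clec4a2, the inhibitory receptor DCIR1, stood at 3.01, 3.87, 3.15 and 3.30 RPKM in pericardial libraries, at 2.68, 2.84, 2.91 and 3.52 in pleural, at 3.75, 2.43, 2.87 and 2.64 in peritoneal and at 27.2, 29.9, 38.6 and 44.1 in heart libraries. Clec4a1, its paralog DCIR4, stood at 13.8, 18.9, 15.4 and 12.01 RPKM in pericardial libraries, at 11.2, 15.8, 13.4 and 12.2 in pleural, at 14.9, 15.8, 8.73 and 11.2 in peritoneal and at 53.2, 72.2, 90.5 and 97.1 in heart libraries. Clec4a3, or DCIR3, stood at 24.1, 26.9, 25.5 and 14.8 RPKM in pericardial libraries, at 16.7, 26.3, 19.8 and 19.4 in pleural, at 24.8, 32.0, 16.3 and 18.2 in peritoneal and at 46.7, 63.9, 81.6 and 74.4 in heart libraries. In each of the 3 genes the lowest heart library was above the highest cavity library, and the cavities overlapped. The log2 folds against heart in pericardial, pleural and peritoneal macrophages were -3.19 ± 0.16, -3.33 ± 0.16 and -3.36 ± 0.16 for Clec4a2, -2.33 ± 0.21, -2.50 ± 0.21 and -2.58 ± 0.21 for Clec4a1, and -1.53 ± 0.23, -1.66 ± 0.23 and -1.54 ± 0.23 for Clec4a3 (largest limma adjusted p = 1.3e-05). DCIR paralogs share sequence: 6.69% of the 50-base windows of Clec4a2 transcripts and 8.68% of those of Clec4b1 also occur in another gene, so how reads were split there is uncertain, while Clec4d, Clec4e, Clec4a1 and Clec4a3 shared none. The remaining 2 genes of the row were silent in every library, Clec4a4 (DCIR2) at no more than 0.913 RPKM and Clec4b2 at no more than 0.0245.

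**Figure D4:**
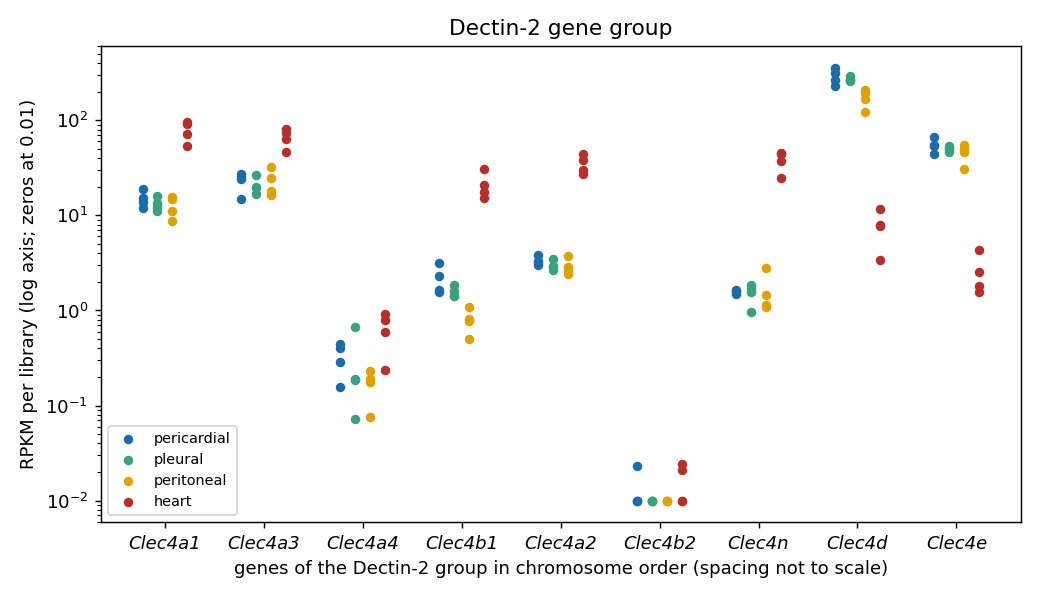
RPKM of the 9 genes of the Dectin-2 group in each library on a log axis, in chromosome order with spacing not to scale; zeros are drawn at 0.01. Heart points stand above the cavity points from Clec4a1 to Clec4n among the genes above 1 RPKM and below them at Clec4d and Clec4e, the last pair.

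In the Dectin-1 gene group, farther along the same chromosome in the natural killer gene complex, 3 of 6 genes passed the filter. Clec7a, or Dectin-1, the receptor of fungal β-glucan that signals through its own tyrosine motif, stood at 19.7, 29.1, 32.1 and 19.4 RPKM in pericardial libraries, at 17.4, 17.5, 30.7 and 22.2 in pleural, at 29.7, 30.7, 26.8 and 24.8 in peritoneal and at 43.0, 49.6, 109 and 81.2 in heart libraries. It was expressed in all 4 populations, with every heart library above every cavity library, and the heart libraries spread the most. Its log2 fold against heart was -1.41 ± 0.26, -1.60 ± 0.26 and -1.22 ± 0.26 in pericardial, pleural and peritoneal macrophages (largest limma adjusted p = 0.000421). Clec12a, or MICL, an inhibitory receptor of uric acid crystals, stood at 1.21, 1.85, 1.38 and 0.841 RPKM in pericardial libraries, at 1.03, 0.972, 1.44 and 0.899 in pleural, at 2.46, 2.30, 1.48 and 1.42 in peritoneal and at 41.2, 36.9, 63.7 and 59.0 in heart libraries. Cavity levels were 0.841 to 2.46 RPKM, heart levels were far above them without overlap, and the folds were -4.79 ± 0.20, -4.97 ± 0.20 and -4.38 ± 0.20 (log2, same order; largest limma adjusted p = 4.17e-13). Clec7a and Clec4n thus both stood higher in heart, but Clec7a kept cavity levels of 17.4 to 32.1 RPKM where Clec4n had 0.963 to 2.79. The third tested gene, Clec1b, is described with the cavities below. Clec12b, Clec1a and Clec9a (DNGR-1, a receptor of dead-cell actin that marks cross-presenting dendritic cells) were silent, at no more than 0.111, 0.688 and 0.486 RPKM.

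Clec5a, or MDL-1, which signals through the adaptor DAP12, stood at 6.81, 6.96, 6.61 and 7.25 RPKM in pericardial libraries, at 7.20, 3.99, 7.66 and 6.82 in pleural, at 6.37, 3.64, 2.90 and 4.82 in peritoneal and at 15.9, 14.8, 25.0 and 24.0 in heart libraries. All heart libraries were above all cavity libraries, and the log2 fold was -1.43 ± 0.22, -1.56 ± 0.22 and -2.06 ± 0.22 in pericardial, pleural and peritoneal macrophages against heart (largest limma adjusted p = 1.78e-05). The adaptor's own gene, Tyrobp, stood at 1330.2 ± 319, 1202 ± 212, 1174 ± 253 and 520.5 ± 186 RPKM (SD, n = 4) in pericardial, pleural, peritoneal and heart libraries, and was called higher in each cavity (log2 fold 1.39, 1.25 and 1.21, largest limma adjusted p = 0.000348).

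Among CD69 and the Clr proteins, 5 of 8 genes passed the filter, and they moved in both directions. Cd69, a surface marker of early leukocyte activation, stood at 1.69, 1.64, 0.939 and 0.695 RPKM in pericardial libraries, at 2.168, 1.08, 0.912 and 0.969 in pleural, at 0.507, 0.291, 0.203 and 0.477 in peritoneal and at 5.09, 4.34, 7.20 and 6.26 in heart libraries. Every heart library was above every cavity library, and the peritoneal libraries were all below those of the other 2 cavities. The log2 fold against heart was -1.86 ± 0.23, -1.83 ± 0.23 and -2.83 ± 0.23 in pericardial, pleural and peritoneal macrophages (largest limma adjusted p = 1.2e-06). Immediate early genes, which cells switch on within minutes of a stimulus, stood beside this: all 14 tested of 15 were higher in heart than in each cavity, and their summed RPKM was 7951 to 12448 in heart, 592 to 783 in pericardial, 390.5 to 445 in pleural and 207 to 375 in peritoneal libraries. The share of all genes called lower than heart was 14.7%, 13.9% and 14.1% in pericardial, pleural and peritoneal macrophages. T and natural killer cell markers, 1 tested of 10, summed to 5.59 to 9.10 RPKM in heart and 1.23 to 3.37 in cavity libraries. The part of either in the level of Cd69 was not tested, and how tissue was handled before the sort cannot be told apart from the populations.

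Clec2d encodes Clr-b, the ligand of an inhibitory receptor on natural killer cells, and stood at 13.9, 23.2, 10.6 and 13.6 RPKM in pericardial libraries, at 13.3, 27.0, 13.8 and 17.3 in pleural, at 13.1, 22.7, 7.68 and 11.95 in peritoneal and at 19.2, 30.7, 36.6 and 33.2 in heart libraries. Heart library 2 lay within the cavity range and the other heart libraries above it. The log2 fold was -0.96 ± 0.30 (limma adjusted p = 0.00768), -0.75 ± 0.30 (0.0341) and -1.14 ± 0.30 (0.00248) in pericardial, pleural and peritoneal macrophages against heart. The pleural call was lost when pleural library 2 (-0.63, limma adjusted p = 0.0999), 4 (-0.65, 0.0958) or 5 (-0.75, 0.0559) or heart library 3 (-0.72, 0.0671), 4 (-0.64, 0.0951) or 5 (-0.69, 0.0722) was left out. It was also lost without the filter (limma adjusted p = 0.0934).

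Clec2g and Clec2i, neighbouring Clr genes, were lower in heart. Clec2g stood at 4.89, 6.63, 12.4 and 6.40 RPKM in pericardial libraries, at 5.28, 4.64, 5.91 and 6.42 in pleural, at 8.89, 8.22, 5.56 and 7.08 in peritoneal and at 0.715, 0.562, 0.446 and 0.163 in heart libraries. Clec2i, or Clr-g, a ligand of the killer cell receptor NKR-P1F, stood at 5.81, 4.13, 5.23 and 4.86 RPKM in pericardial libraries, at 5.51, 3.35, 4.61 and 5.15 in pleural, at 10.9, 8.17, 6.48 and 8.00 in peritoneal and at 2.06, 1.05, 2.40 and 2.53 in heart libraries. In both genes every heart library was below every cavity library, and for Clec2i the peritoneal libraries were also above all others. The log2 folds against heart in pericardial, pleural and peritoneal macrophages were 3.01 ± 0.23, 2.67 ± 0.23 and 3.05 ± 0.23 for Clec2g and 1.17 ± 0.20, 1.06 ± 0.20 and 1.85 ± 0.20 for Clec2i (largest limma adjusted p for Clec2i = 0.000182). No p is given for Clec2g, which passed the filter through cavity libraries alone. Clec2h, or Clr-f, ranged from 0.433 to 5.0 RPKM with all populations overlapping and was not called in any comparison. Without pericardial library 5 its pericardial level was called lower than heart (-1.29, limma adjusted p = 0.0128), and without peritoneal library 4 its peritoneal level was (-1.18, 0.0259). Clec2e, Clec2f and Clec2l were silent, at no more than 0.299, 0.272 and 0.122 RPKM. The Clec2 genes share 1.98 to 4.10% of their 50-base windows with other genes, mostly with each other, for Clec2d, Clec2g, Clec2h and Clec2i.

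The DC-SIGN family on chromosome 8 held both directions as well, with 6 of 8 genes tested. Cd209b, or SIGN-R1, the receptor by which marginal zone macrophages of the spleen take up bacterial polysaccharide, was the only tested member of this family lower in heart than in each cavity, at 7.73, 8.73, 10.3 and 5.20 RPKM in pericardial libraries, at 7.001, 5.20, 9.56 and 5.91 in pleural, at 4.91, 5.54, 3.46 and 3.54 in peritoneal and at 1.20, 1.27, 1.11 and 1.10 in heart libraries. Heart libraries were close to 1 RPKM and the pericardial and pleural libraries reached the highest levels. Its log2 fold was 2.31 ± 0.20, 2.12 ± 0.20 and 1.52 ± 0.20 in pericardial, pleural and peritoneal macrophages against heart (largest limma adjusted p = 2.22e-06). Cd209a, used as a marker of monocyte-derived dendritic cells, stood at 5.09, 4.45, 6.83 and 3.57 RPKM in pericardial libraries, at 4.35, 4.32, 6.47 and 5.77 in pleural, at 4.37, 4.72, 3.38 and 3.96 in peritoneal and at 9.52, 9.96, 7.88 and 7.80 in heart libraries. Heart libraries were all above the cavity libraries by a small margin, with folds of -0.79 ± 0.17, -0.71 ± 0.17 and -1.01 ± 0.17 (log2, same order; largest limma adjusted p = 0.0018).

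Cd209f and Cd209g, further murine DC-SIGN homologs, lie next to each other. Cd209f stood at 3.50, 0.752, 0.526 and 0.457 RPKM in pericardial libraries, at 1.95, 0.4995, 0.275 and 0.229 in pleural, at 8.18, 0.0629, 0.287 and 0.0427 in peritoneal and at 21.9, 25.3, 20.6 and 30.8 in heart libraries. Cd209g stood at 0.807, 0.387, 0.388 and 0.0628 RPKM in pericardial libraries, at 0.287, 0.173, 0.081 and 0.134 in pleural, at 1.77, 0.0679, 0.0603 and 0.127 in peritoneal and at 6.39, 6.25, 5.22 and 7.21 in heart libraries. All heart libraries were above all cavity libraries in both genes, and within each cavity library 2 was the highest. The log2 folds against heart were -4.06 ± 0.65, -4.52 ± 0.65 and -4.37 ± 0.65 for Cd209f and -2.95 ± 0.34, -3.34 ± 0.34 and -3.04 ± 0.34 for Cd209g, with no p because both passed the filter through their heart levels. Without peritoneal library 2 the peritoneal fold of Cd209f was -5.32. Markers of resident cardiac macrophages stood beside this. All 6 listed were tested and higher in heart, against 13.9 to 14.7% of all genes called lower in a single cavity than in heart. The summed RPKM of the 6 was 1048 to 1509 in heart libraries and 19.3 to 85.8 in cavity libraries. In each cavity library 2 had the highest sum, at 60.9, 39.1 and 85.8 in pericardial, pleural and peritoneal macrophages. Among the 6 markers Folr2 stood at 20.04, 12.02 and 30.6 RPKM in the libraries numbered 2 and at no more than 15.1, 5.90 and 4.11 in the others. Their part in the Cd209f level was not tested. The pair also shares sequence, with 29.8% of the 50-base windows of Cd209f and 16.6% of those of Cd209g found in the other gene, so the split of reads between them is uncertain.

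Cd209c stood at 2.44, 1.22, 1.65 and 3.90 RPKM in pericardial libraries, at 3.74, 2.58, 3.29 and 4.31 in pleural, at 2.51, 1.68, 8.35 and 3.91 in peritoneal and at 6.86, 7.49, 3.27 and 5.25 in heart libraries. All populations overlapped, and only the pericardial difference was called, at -1.18 ± 0.35 (log2, limma adjusted p = 0.0056). Without peritoneal library 4, the highest of all, peritoneal macrophages were also called lower than heart (-0.96, limma adjusted p = 0.00994). Of its 50-base windows 11.6% occur in other genes. Cd209d (SIGN-R3) was low throughout, at 0.317 to 1.19 RPKM in cavity and 1.04 to 2.05 in heart libraries, with folds of -0.72 ± 0.18, -0.59 ± 0.18 and -1.08 ± 0.18 against heart, again with no p for the same reason. Cd209e was silent, at no more than 0.275 RPKM. Clec4g, the sinusoidal endothelial lectin LSECtin, passed 1 RPKM in pleural library 2 alone, at 1.08.

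Cd207 gave the largest log2 folds of the 27 tested genes. It encodes langerin, the lectin of Langerhans cells and of some dendritic cells that forms Birbeck granules. Its start window is shown because no other gene of the family was listed at 0 in a whole population while standing at 28.8 RPKM or more in every library of another. The line covers chr6:83677808-83678107 on the minus strand of GRCm38.p6, and capitals mark matches to the same 4 motifs, here 2 for GATA, 1 for PU.1 and 1 for AP-1.
Cd207: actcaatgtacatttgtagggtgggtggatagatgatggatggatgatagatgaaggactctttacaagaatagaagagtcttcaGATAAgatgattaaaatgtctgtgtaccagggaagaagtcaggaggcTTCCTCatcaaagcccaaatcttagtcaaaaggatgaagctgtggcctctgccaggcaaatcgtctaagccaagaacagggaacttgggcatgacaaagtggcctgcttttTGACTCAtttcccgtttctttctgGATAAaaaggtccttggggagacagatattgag

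Cd207 stood at 0, 0, 0 and 0 RPKM in pericardial libraries, at 0.0621, 0.057, 0.158 and 0.056 in pleural, at 0, 0.0268, 0 and 0 in peritoneal and at 41.5, 28.8, 56.0 and 85.9 in heart libraries. It was listed at 0 in all pericardial libraries and in 3 of the 4 peritoneal ones, stayed below 0.2 RPKM in pleural libraries, and was far above all of these in every heart library. Its log2 fold against heart was -6.41 ± 0.22 in pleural and -6.61 ± 0.22 in peritoneal macrophages, and no fold is given for pericardial macrophages. With no cavity library at 1 RPKM, it passed the filter through heart alone, and no p is given. Dendritic cell markers, 6 tested of 9, stood beside this with a summed RPKM of 70.8 to 97.3 in heart and 27.6 to 33.7 in cavity libraries. In each cavity 4 of the 6 were called lower than heart and 0 higher. Of all genes tested, 14.7%, 13.9% and 14.1% were lower and 53.8%, 47.8% and 48.8% higher in pericardial, pleural and peritoneal macrophages. The defining genes Zbtb46 and Flt3 were low in every library but higher in heart. They stood at 0.730 to 1.09 and 0.436 to 0.733 RPKM in heart and at 0.218 to 0.424 and 0.0168 to 0.260 in cavities. The part of such cells in the level of Cd207 was not tested.

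Clec10a, or MGL1, a receptor of galactose-type sugars common on tissue macrophages, stood at 29.6, 30.5, 29.7 and 22.2 RPKM in pericardial libraries, at 26.4, 30.1, 28.1 and 25.1 in pleural, at 40.8, 33.6, 23.3 and 27.9 in peritoneal and at 62.5, 61.4, 68.1 and 82.2 in heart libraries. The heart libraries were all above the cavity libraries, and the log2 fold was -1.28 ± 0.17, -1.30 ± 0.17 and -1.13 ± 0.17 in pericardial, pleural and peritoneal macrophages (largest limma adjusted p = 1.33e-05). Mgl2, the paralog outside the symbol rule, differed more, at 11.96 ± 3.01, 11.8 ± 1.22 and 12.6 ± 2.68 RPKM in pericardial, pleural and peritoneal libraries and 242 ± 48.1 in heart (SD, n = 4). Of the 50-base windows of Clec10a, 9.02% occur in other genes, Mgl2 among them. Clec4f, the glycolipid receptor of liver Kupffer cells, was at 0 to 0.0684 RPKM in cavity and 1.25 to 3.96 in heart libraries. Its log2 fold was -2.35 ± 0.22 (SE) in each cavity, on a scale that understates the change of so low a gene. It passed the filter through heart libraries alone, so no p is given.

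Of the secreted and endothelial members, Clec3b alone passed the filter. It encodes tetranectin, a plasminogen-binding protein made by fibroblasts, and stood at 0.233, 0.0401, 0.0289 and 0 RPKM in pericardial libraries, at 0, 0.022, 0.122 and 0.0863 in pleural, at 0.0237, 0, 0.221 and 0.125 in peritoneal and at 18.1, 5.70, 5.39 and 5.09 in heart libraries. It was near 0 in the cavities and at least 5.09 RPKM in heart, with heart library 2 far above the other 3. The log2 fold was -3.79 ± 0.28, -3.82 ± 0.28 and -3.74 ± 0.28 against heart, and -3.37, -3.41 and -3.33 without heart library 2. It too passed the filter through heart libraries alone, so no p is given. All 7 fibroblast markers tested of 10 were higher in heart than in each cavity. The share of all genes lower in a single cavity than in heart was 13.9 to 14.7%. Fibroblast markers summed to 703 RPKM in heart library 2, 186 to 231 in the other heart libraries and 0.729 to 2.14 in cavity libraries. Their part in the Clec3b level was not tested. Clec11a reached 1.47 RPKM in heart library 2 and stayed under 1 RPKM elsewhere, and Clec14a, Clec18a and Clec3a were silent, at no more than 0.258, 0.0845 and 0.604. Clec16a ranged from 1.33 to 3.10 RPKM over all libraries. It was called higher in pericardial (0.44 ± 0.16, limma adjusted p = 0.0182) and peritoneal (0.40 ± 0.16, 0.034) than in heart macrophages. The first call was lost without pericardial library 2 (0.39, limma adjusted p = 0.0546) or heart library 5 (0.35, 0.0616) and took the other sign with equal RPKM totals (-0.07, 0.686), and with median-ratio scaling the fold was 0.15 (0.262). The peritoneal call was lost without any of peritoneal libraries 2, 3 and 5 and heart libraries 2, 3 and 5 (adjusted p 0.0534 to 0.131), and the fold was 0.14 (0.298) with median-ratio scaling and 0.06 (0.74) with equal RPKM totals.

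Differences between the cavities were few and involved peritoneal macrophages. No lectin gene was called between pericardial and pleural macrophages, where 0.0089% of all genes were higher, 0.0089% lower and 0.0178% called in either direction, and none had an unadjusted p under 0.05 by limma. Between pericardial and peritoneal macrophages 2 of the 27 were higher and 1 lower, against 0.525% and 0.427% of all genes and 0.952% in either direction. Between pleural and peritoneal macrophages none was higher and 1 was lower, against 0.214% and 0.374% of all genes and 0.588% in either direction, while at an unadjusted p under 0.05 by limma 6 were higher and 3 lower, against 9.76% of all genes in either direction. The same unadjusted counts between pericardial and peritoneal macrophages were 5 higher and 2 lower, against 8.89% of all genes. No gene of the family set apart a single cavity from the other 3 populations by the adjusted test, while 0.107% and 0.116% of all genes were higher and lower in peritoneal macrophages than in all others. At an unadjusted p under 0.05, 2 genes were higher in peritoneal macrophages and 3 lower, namely Clec1b, Clec2i, Cd69, Clec4b1 and Clec5a, against 1.69% and 0.872% of all genes. No such gene was found for the pericardial or the pleural population at that level.

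Clec4b1 (DCAR), whose levels are given above, was higher in pericardial than in peritoneal macrophages by 1.02 ± 0.21 on the log2 scale (limma adjusted p = 0.0155), with every pericardial and pleural library above every peritoneal one. The pleural difference was 0.69 ± 0.21 (limma adjusted p = 0.194), and was called with median-ratio scaling (0.042) and equal RPKM totals (0.0201). The pericardial call was lost without pericardial library 3 (0.86, limma adjusted p = 0.0889) or 4 (0.99, 0.0606) or peritoneal library 4 (0.91, 0.0559) or 5 (1.03, 0.0523). It was also lost without the filter (limma adjusted p = 0.099). Cd69 was higher in pericardial than in peritoneal macrophages by 0.97 ± 0.23 (limma adjusted p = 0.0454), and the pleural difference was 1.0 ± 0.23 (0.0525), which was called without pericardial library 5 (1.0, 0.030) or peritoneal library 4 (0.90, 0.0458). It was also called with the replicate block (adjusted p = 0.0443 by limma), the compared groups only (0.0279), median-ratio scaling (0.0183) and equal RPKM totals (0.0205). The pericardial call was lost when any of pericardial libraries 2 to 4, pleural libraries 3 to 5, all 4 peritoneal libraries and heart libraries 2 and 5 was left out, with log2 folds of 0.85 to 1.05 and adjusted p of 0.0506 to 0.216. It was also lost with a pseudocount of 1 (limma adjusted p = 0.093), without the filter (0.226) and with the compared groups only (0.0512).

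Clec1b, or CLEC-2, the receptor of podoplanin known from platelets, stood at 0.542, 1.10, 1.74 and 0.491 RPKM in pericardial libraries, at 0.866, 0.522, 1.68 and 0.83 in pleural, at 3.53, 3.31, 3.65 and 1.74 in peritoneal and at 0.639, 0.44, 0.675 and 1.07 in heart libraries. Peritoneal macrophages were the highest, with 3 libraries above all others and library 5 level with the highest pericardial library. The log2 difference was -1.32 ± 0.27 for pericardial (limma adjusted p = 0.0164) and -1.29 ± 0.27 for pleural (0.0282) against peritoneal macrophages, and 1.54 ± 0.27 for peritoneal against heart (7.13e-05). The first call was lost without pericardial library 2 (-1.18, limma adjusted p = 0.0809) or 5 (-1.15, 0.0545) or peritoneal library 2 (-1.24, 0.0601) or 4 (-1.23, 0.0622). The second was lost without pleural library 2, 3 or 5 or peritoneal library 2 or 3 (adjusted p 0.0736 to 0.133). Without the filter both were lost (limma adjusted p = 0.123 and 0.19), and the second also with a pseudocount of 0.1 (0.0538). Platelet markers stood beside this: Pf4 was at 1547 to 3436 RPKM in cavity and 557 to 1060.4 in heart libraries, and the other 7 of 8 stayed at or under 0.263 RPKM in every cavity library. Clec1b overlaps Clec9a over 3.61% of its exon bases, and how strand was counted is not given.

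Of genes that missed the threshold, Cd209b was higher in pericardial than in peritoneal macrophages by 0.79 ± 0.20 (limma adjusted p = 0.0708), and this difference was called without pericardial library 5 (0.97, 0.0106), pleural library 4 (0.79, 0.0473) or peritoneal library 3 (0.90, 0.0412). It was also called with median-ratio scaling (limma adjusted p = 0.0281) and equal RPKM totals (0.0498). The Clec2i difference was -0.68 for pericardial (0.182) and -0.79 for pleural (0.0982) against peritoneal macrophages, the latter called without peritoneal library 4 (-0.89, 0.0276) or heart library 3 (-0.79, 0.0374), and with the replicate block (0.0437). The pleural difference was also called with median-ratio scaling (limma adjusted p = 0.0285). With equal RPKM totals both the pericardial (0.0251) and the pleural (0.0207) difference were called. Clec4d, whose peritoneal libraries lay below all other cavity libraries, gave 0.77 ± 0.26 for pericardial (0.291) and 0.67 ± 0.26 for pleural (0.372) against peritoneal macrophages, with 95% intervals of 0.20 to 1.33 and 0.11 to 1.24. These intervals use the residual degrees of freedom, are not adjusted for the number of genes, and are wider than those of limma's moderated test. The values of Cd209b, Clec2i and Clec4d do not show that the cavities are alike in these genes.

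**Figure D5:**
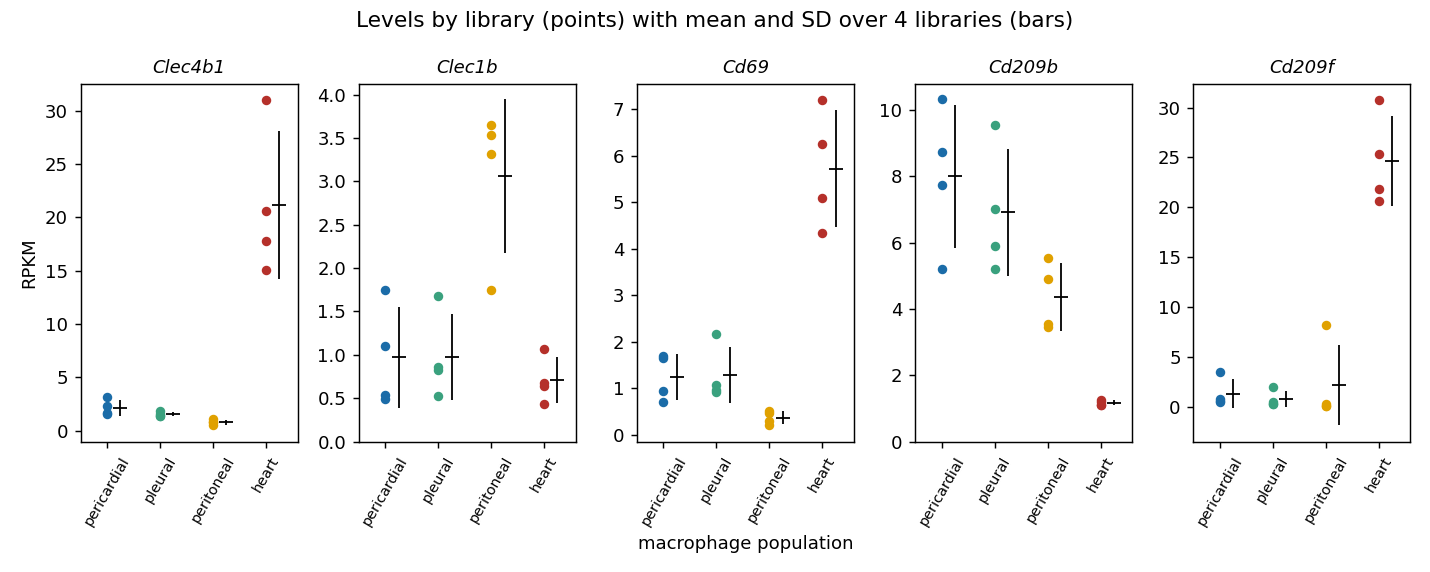
RPKM by library of Clec4b1, Clec1b, Cd69, Cd209b and Cd209f in the 4 populations, 1 point per library on linear axes, with the mean and SD of 4 libraries beside them. Peritoneal points are the highest for Clec1b and the lowest for Cd69 and Clec4b1, and for Cd209f library 2 stands above the other libraries of its cavity, at 3.50, 1.95 and 8.18.

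The signalling partners of these receptors were followed as a list of 30 genes of the FcRγ, DAP12, Syk and CARD9 route and its outputs, of which 28 were tested. Against heart, 12 were higher and 6 lower in pericardial, 8 and 8 in pleural, and 12 and 10 in peritoneal macrophages. The shares of all genes were 53.8% and 14.7%, 47.8% and 13.9%, and 48.8% and 14.1%. Median log2 folds were 0.20, 0.11 and 0.14 for the list and 0.45, 0.36 and 0.38 for all genes. The split of the list rests on the scaling. With median-ratio scaling it was 5 higher and 13 lower in pericardial macrophages, against 39.2% and 25.2% of all genes. With equal RPKM totals it was 5 and 15, against 24% and 36.2%. Syk itself stood at 43.8 ± 7.80, 40.8 ± 3.03, 40 ± 8.05 and 37.3 ± 5.31 RPKM in pericardial, pleural, peritoneal and heart libraries (SD, n = 4), and was not called against heart. Fcer1g, the gene of FcRγ, stood at 339 ± 70.3, 304 ± 37.5, 275 ± 53.9 and 417 ± 117 RPKM in the same order, and only its peritoneal difference was called (log2 -0.58, limma adjusted p = 0.0272).

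Within the list, the Src-family kinase gene Fgr was at 26.1 ± 4.74, 24.5 ± 3.73 and 23.7 ± 4.10 RPKM in pericardial, pleural and peritoneal and 1.93 ± 0.322 in heart libraries (SD, n = 4). The adaptor Card9, which links Syk to NF-κB, was at 31.7 ± 3.08, 35.7 ± 2.82 and 33.8 ± 5.57 RPKM and 15.1 ± 3.48 in heart. Of the genes of the list below 1 RPKM in every cavity library, 3 were tested. Il1b, the gene of the cytokine interleukin-1β, was at 0.0609 to 0.851 RPKM in cavity libraries and 122 to 334 in heart, and Il10 at 0.0785 to 0.356 and 6.93 to 11.4. Nfatc2, a transcription factor activated by calcium, was at 0.110 to 0.264 and 4.84 to 6.58. The log2 folds of Il1b, Il10 and Nfatc2 were -7.95, -3.86 and -3.22 in pericardial against heart macrophages. These 3 passed the filter through heart libraries alone, so no p is given. The immediate early genes given beside Cd69 moved with these, and their part was not tested.

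Of 33 related lectin genes outside the symbol rule, 13 were tested, and against heart 5 were higher and 5 lower in pericardial macrophages, 4 and 5 in pleural, and 5 and 5 in peritoneal. Of all genes tested, 53.8% were higher and 14.7% lower in the first, 47.8% and 13.9% in the second, and 48.8% and 14.1% in the third. With equal RPKM totals the list gave 4 higher and 6 lower, 4 and 6, and 5 and 7, and with median-ratio scaling 4 and 6, 4 and 6, and 5 and 6. Selp, the gene of P-selectin, was among the higher, at 132 to 222 RPKM in cavity and 0.978 to 1.48 in heart libraries. Mrc1, the mannose receptor, was at 1.74 to 10.6 RPKM in cavity and 226 to 358 in heart libraries, and Cd72, an inhibitory lectin known from B cells, at 0.145 to 0.625 and 37.3 to 74.3. Between the cavities, Cd93 was called lower in pericardial (log2 -0.97, limma adjusted p = 0.0122) and pleural (-1.05, 0.00986) than in peritoneal macrophages, and no other gene of this list was called.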

How the data were processed

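RNA-seq of sorted macrophages was analysed from the authors' deposited table of RPKM values per gene symbol and library. The number of alignments per library was taken as a count from the deposited headers. Base calls, alignment and quantification used bcl2fastq 2.17.1, TopHat2 2.1.1 and Partek 7.18.0723 on mm10, per the submitters' processing notes. The RPKM of each symbol were used as listed, and how they combine the transcripts of a gene was not checked. Read counts per gene were not used here, so depth is known only as alignments per library and no counting interval is given. The authors also deposited log2 group means per transcript. For the 16685 genes with 1 transcript the pericardial means equalled the mean of log2(RPKM + 0.1) to within 5.07e-05.

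Genes at 1 RPKM or more in at least 4 libraries were kept, which left 11234 of 24981. Limma 3.58.1 in R 4.3.3 (trend, two-sided moderated test, Benjamini-Hochberg adjustment over all genes tested, call at 0.05) was fitted to log2(RPKM + 0.5) over all 16 libraries, 4 per population, and all 6 pairs of populations were compared. This scale understates the fold of low genes. The procedure was tested on simulated data. Values per library are printed for lectin genes called in at least 1 comparison with a group mean of 5 RPKM or more, and for Clec1b; other genes are given by range, and silent means under 1 RPKM in every library. The lectin genes and all lists were chosen with earlier results of these data known. Libraries share the numbers 2 to 5 across populations, and the correlation of same-numbered libraries' deviations was -0.63 to 0.63 over 24 pairs; only pericardial and pleural libraries exceeded 0.1 in all 4 pairs. Alternatives were other pseudocounts, no filter, 2 other scalings, the compared groups only, a replicate block and leaving out each library. Start windows and coordinates are RefSeq, GRCm38.p6; 33 of the 41 genes matched a window. Sequence shared between genes was found as 50-base windows of GENCODE M21 transcripts. Protein sequences were not used here.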

Additional observations from a re-analysis of the deposited data

Results flagged for a closer look

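In each gene and population the 4 libraries were screened for 1 library far from the other 3, by the ratio of its gap to the group's range (Dixon's 95% critical value). Of 108 groups, 10 passed, and chance flags about 1 in 20 groups.

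Cd209f had such a library in every cavity, and each time it was library 2. Pericardial library 2 stood at 3.50 RPKM with the others at 0.457 to 0.752, pleural library 2 at 1.95 with the others at 0.229 to 0.50, and peritoneal library 2 at 8.18 with the others at 0.0427 to 0.287. Cd209g stood at 1.77 in peritoneal library 2 and at 0.0603 to 0.127 in the others. Cd69 stood at 2.168 in pleural library 2 and at 0.912 to 1.08 in the others.

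Cd207 was at 0.158 in pleural library 4 with the others at 0.0560 to 0.0621, and at 0.0268 in peritoneal library 3 with the others at 0. Clec10a was at 22.2 in pericardial library 5 and at 29.6 to 30.5 in the others. Clec2h was at 4.403 in pericardial library 5 and at 0.820 to 1.28 in the others. Clec3b was at 18.1 in heart library 2 and at 5.09 to 5.70 in the others.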

How the results depend on the processing

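Of the counts of lectin genes, 20 in number, 424 of 472 values under another setting were within 1.5 times the main count or equal to it. Against heart, leaving out each library in turn gave 5 to 6 higher and 19 to 20 lower for pericardial, 5 to 5 and 17 to 18 for pleural, and 6 to 7 and 18 to 20 for peritoneal macrophages, with 17 to 18 genes higher and 5 to 5 lower in heart than in each cavity. The small counts between cavities moved. Pericardial against peritoneal, 2 higher and 1 lower in the report, gave 1 higher with a pseudocount of 1 and with the compared groups only, 0 and 0 without the filter, 4 lower with equal RPKM totals, and 0 and 0 with library 2 of both populations left out, an alternative chosen after seeing the data. Pleural against peritoneal, 0 higher and 1 lower, gave 1 and 0 with a pseudocount of 0.1, 0 lower without the filter, 2 and 2 with median-ratio scaling, 2 and 4 with equal RPKM totals, 1 higher with the compared groups only, and 0 lower with both libraries numbered 2 left out. Leaving out each library gave 0 to 3 and 0 to 1 for the former and 0 to 1 and 0 to 2 for the latter. Genes higher in peritoneal macrophages than in all others, 0 in the report, were 1 with a pseudocount of 1, with equal RPKM totals and with the replicate block, and 0 to 1 over the left-out libraries. With the replicate number as a block, pleural against peritoneal gave 1 higher and 2 lower, and no other pair of populations changed its count of called lectin genes; 9 of 16 libraries lay closest to their own number. Of 1848 log2 folds of called genes, 1789 kept their direction and call, 58 lost the call and 1 reversed, Clec16a in pericardial against heart macrophages with equal RPKM totals (-0.0747). The 1848 take in Cd207, Cd209d, Cd209f, Cd209g, Clec3b, Clec4f and Clec2g against heart. These genes passed the filter only through the side where they were high, so their kept calls are no support. The other calls were not counted apart. The cause of the reversal was not tested. Folds of genes near 0 RPKM are limited by the pseudocount.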
